A study of Mus musculus with 12 samples.

Results

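The Wnt genes described here are 54 of the 23284 genes in the deposited expression table of mouse prostate. They were chosen by gene symbol, with no measured value in the rule: all 19 Wnt ligands, the 10 Frizzled receptors, the co-receptors Lrp5 and Lrp6, the R-spondins with the Lgr receptors, the secreted antagonists Sfrp1, Sfrp2, Sfrp4, Sfrp5, Dkk1 to Dkk4 and Wif1, and inside the cell Axin1, Axin2, Ctnnb1, Tcf7, Tcf7l1, Tcf7l2 and Lef1. The rule does not take in Frzb, a secreted Frizzled-related protein under another name, which is given with the other genes of the pathway.

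Wnt ligands are secreted lipid-modified proteins that bind a Frizzled receptor together with Lrp5 or Lrp6. In the canonical branch this stops the destruction of beta-catenin, which then enters the nucleus and acts with the Tcf and Lef factors on target genes. R-spondins, bound to Lgr receptors, raise the number of receptors at the cell surface, while the antagonists hold ligands or co-receptors away from each other. In the prostate the pathway is known for its part in the budding and branching of the developing gland and in the renewal of its epithelium.

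Whole prostate tissue was taken at 4 months of age from mice of a hybrid 129/SvImJ and C57Bl/6J background. The wild-type group held 6 libraries (+/+) and the null group held 6 libraries from mice homozygous for a null allele (-/-), and no treatment is recorded for either group. RNA was poly-A selected and sequenced. The labels do not say whether each library came from a separate animal, so a p-value here reflects how much libraries of a genotype vary, and that variation may be technical.

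Values are log2 expression as deposited, but their exact transformation is not known. Fold differences below assume that 1 unit is a doubling, which cannot hold near the floor of the scale. The depth behind each value is unknown, since the values are not counts. Undetected genes do not reach 0 on this scale: over 1123 olfactory receptor genes the median was 2.85 and the 95th percentile 3.51. Libraries fell into 2 sets within each genotype: wild-type set A (libraries 1 to 3) and set B (4 to 6), and null set A (1, 2 and 5) and set B (3, 4 and 6). Over 3633 well expressed genes (mean of at least 10), wild-type libraries lay a median of 0.0388 to 0.0702 apart within a set and 0.103 to 0.129 across sets, and null libraries 0.0535 to 0.112 within and 0.122 to 0.169 across. Whether libraries of 1 set are independent is not known, so tests over the 4 set means are given beside those over 12 libraries.

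Markers of the cell types of the tissue are given against 28.0% of all tested genes called higher and 25.1% lower over 12 libraries, and 7.58% and 6.96% over set means. Luminal epithelial markers were high throughout, with a summed log2 level of 16.2 to 16.4 in wild-type and 15.9 to 16.4 in null libraries, and 5 of 10 rose and 5 fell. Of 10 basal epithelial markers 7 rose and 1 fell, with summed levels of 12.8 to 13.0 in wild-type and 12.9 to 13.3 in null libraries. Of 10 smooth muscle markers 1 rose and 1 fell, with sums of 16.3 to 16.5 and 16.0 to 16.7, and of 10 fibroblast markers 1 rose and 3 fell, with sums of 14.87 to 15.06 and 14.67 to 14.97. All 8 tested of 9 seminal vesicle secretory genes rose, with sums of 6.87 to 11.8 in wild-type and 16.8 to 20.4 in null libraries, and all 8 myeloid markers fell, with sums of 11.9 to 12.7 and 11.3 to 11.4. Of the other lists, 5 of 8 lymphocyte markers fell, 4 of 8 adipocyte markers rose, 2 of the 3 tested urothelial markers rose, 1 of 8 endothelial markers rose and 1 fell, and 0 of 8 nerve and neuroendocrine markers were called (limma; 0 at an unadjusted p under 0.05, and 0 by the exact rank-sum test at that level). Over set means fewer markers were called: 2 luminal higher and 2 lower, 4 basal higher, 1 fibroblast lower and 5 seminal vesicle higher. Likewise 1 myeloid, 2 lymphocyte and 1 endothelial marker were lower, 2 adipocyte and 2 urothelial markers were higher, and of the smooth muscle markers 0 were called. The part of these differences in the Wnt results was not tested. In whole tissue, fewer cells of a type and less RNA per cell cannot be told apart.

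Of the 54 Wnt genes, 42 passed the filter on low values (at least 4 in at least 6 libraries) and were tested with limma, null against wild-type, with Benjamini-Hochberg adjustment over all 15096 tested genes. In null prostate 11 rose, against 28.0% of all tested genes called higher, and 14 fell, against 25.1% called lower. Together 25 of 42 (59.5%) were called, against 53.1% of all tested genes, so the share of Wnt genes called lay near that of all genes. The balance of all genes depends on scaling, with 4224 higher and 3789 lower as deposited and 3367 higher and 4869 lower after upper quartile scaling, where 11 Wnt genes were higher and 16 lower. Over set means 5 Wnt genes were higher, against 7.58% of all tested genes, and 6 lower, against 6.96% (together 26.2%, against 14.5%), and all 11 were among the 25. The genotypes did not overlap in 18 of the 42 tested Wnt genes (42.9%), against 32.6% of all tested genes, with 7 higher (17.4% of all genes) and 11 lower (15.2%). Against a 1.5-fold change 4 were called, Fzd4 higher and Wif1, Lgr5 and Tcf7l1 lower, against 7.00% of all tested genes. The median difference of the tested Wnt genes was -0.063 and that of all tested genes 0.012, and the median size of the difference was 0.386 against 0.247.

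**Figure D1:**
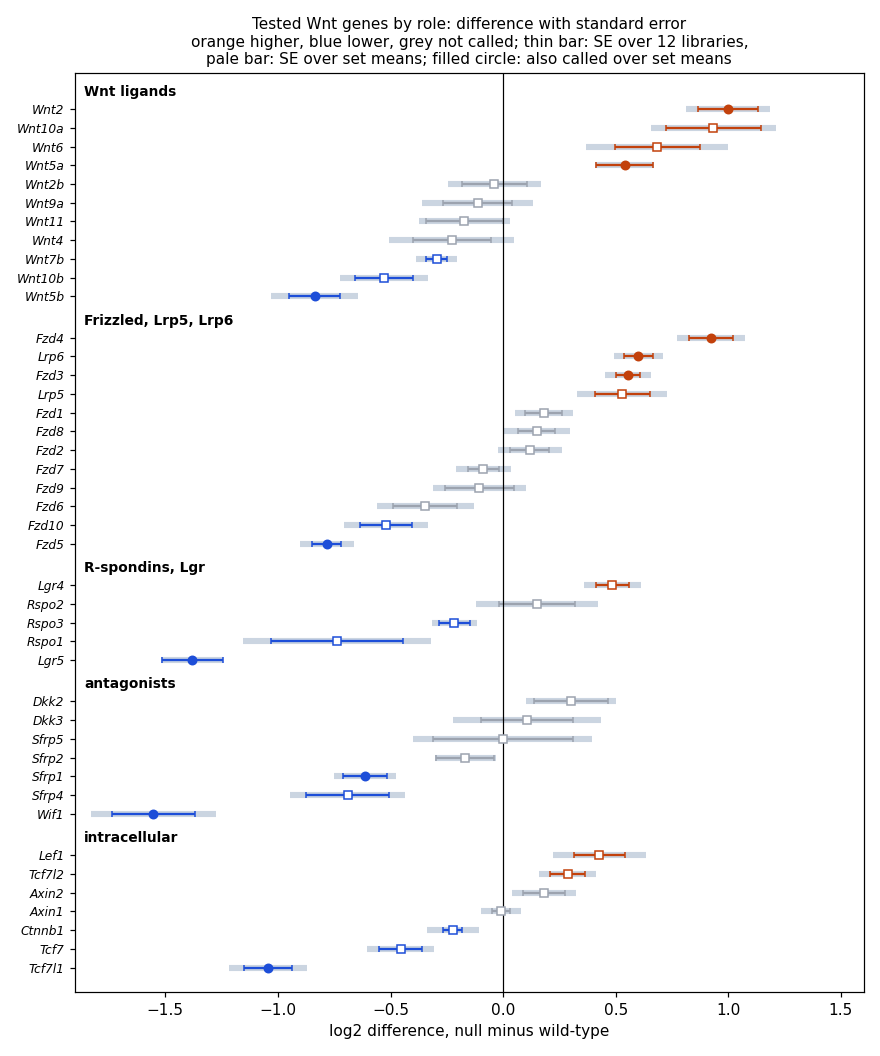
Log2 difference (null minus wild-type, horizontal axis) of each of the 42 tested Wnt genes, grouped by role; thin bars are standard errors over 12 libraries, pale bars those over set means, and filled circles mark genes also called over set means. Wif1 and Lgr5 lie farthest to the left at -1.55 and -1.38, and Wnt10a, at 0.93, and Wnt2 farthest to the right.

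Among the ligands, Wnt2 rose and Wnt5b fell, while the ligand of highest level, Wnt7b, was slightly lower in null prostate. Of 11 tested ligands 4 rose, 3 fell and 4 were not called, against 28.0% of all tested genes called higher and 25.1% lower. Over set means 2 were higher and 1 lower, against 7.58% and 6.96% of all tested genes. Wnt2, a ligand of mesenchymal cells in many developing organs, stood at 6.68 to 7.43 in wild-type libraries (median 7.09) and at 7.81 to 8.27 in null libraries (median 8.16). The lowest null library lay above the highest wild-type library. It rose by 1.0 ± 0.133 (SE), or 2.0-fold (limma adjusted p = 2.03e-05, and adjusted p = 0.0244 over set means). Wnt5b, a ligand that mostly signals without beta-catenin, stood at 6.24 to 6.54 in wild-type libraries (median 6.39) and at 5.12 to 5.71 in null libraries (median 5.63). All null libraries were lower than all wild-type libraries, and null library 2 stood lowest. It fell by 0.84 ± 0.114 (SE; limma adjusted p = 2.70e-05, and adjusted p = 0.0440 over set means).

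Wnt5a, the close relative of Wnt5b, went the other way. Its wild-type libraries lay within 7.85 to 8.04 (median 7.95) and its null libraries spread from 8.04 to 9.01 (median 8.44), so that the groups met at null library 4. The rise was 0.54 ± 0.128 (SE; limma adjusted p = 0.00266, and adjusted p = 0.0497 over set means). Wnt10a rose by 0.93 from 4.76 ± 0.43 (SD, n = 6) to 5.69 ± 0.37 (SD, n = 6), with overlapping libraries (limma adjusted p = 0.00188, and adjusted p = 0.0780 over set means). Without wild-type set B its rise was 0.60. Wnt6 rose by 0.68 from 5.47 ± 0.42 to 6.15 ± 0.27 (SD, n = 6 each; limma adjusted p = 0.00680), but this call was lost without wild-type set B (0.30, adjusted p = 0.147), without null set A (0.47, adjusted p = 0.0994) and over set means (adjusted p = 0.197), and the rise was 1.06 without wild-type set A. Ligands with known parts in epithelium, Wnt7b and Wnt10b, fell by 0.30 (limma adjusted p = 8.94e-05) and by 0.53 (limma adjusted p = 0.00323), each without overlap between genotypes. Neither passed over set means (adjusted p = 0.0867 and adjusted p = 0.128).

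Wnt4 was not called, with 8.20 ± 0.16 in wild-type and 7.97 ± 0.45 in null libraries (SD, n = 6 each; limma adjusted p = 0.289) and the null libraries split into high and low values. Null set A stood at 8.32 to 8.42, and null set B at 7.44 to 7.74. Wnt9a (6.20 and 6.09 in wild-type and null libraries), Wnt2b (6.17 and 6.13) and Wnt11 (4.41 and 4.24) were not called either (limma).

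Expression was also divided by kilobases of exon to set genes side by side. This assumes that the deposited values are not already scaled by length, which is not known, and on the values as deposited Wnt4 (8.20) and Wnt5a (7.95) stood above Wnt2 (7.09) in wild-type libraries. Per kilobase the wild-type order of ligands was Wnt7b at 7.15, Wnt4 at 6.13, Wnt2 at 5.92, Wnt5a at 5.14 and Wnt5b at 4.99. Wnt4 and Wnt2 differed by less than the spread of Wnt2 between libraries (SD 0.307). In null prostate Wnt2 stood at 6.92 and Wnt7b at 6.85, which differed by less than the spread of Wnt2 there (SD 0.186), followed by Wnt4 at 5.90 and Wnt5a at 5.67, whose difference lay within their spread (SD 0.450 and 0.345). Wnt5b, ranked 5 of the 11 tested ligands in wild-type libraries, ranked 9 in null libraries. At 4.15 there, it differed from Wnt9a (4.35, SD 0.286), Wnt10a (4.39, SD 0.370) and Wnt2b (4.40, SD 0.273) by less than their spread.

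**Figure D2:**
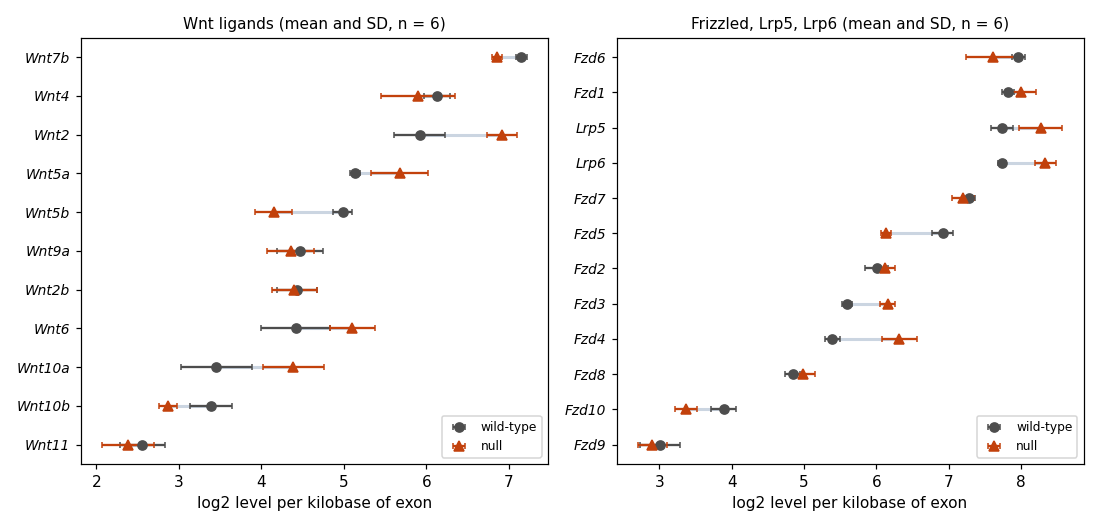
Level per kilobase of exon (log2, horizontal axis) of the tested ligands (left) and of the Frizzled receptors with Lrp5 and Lrp6 (right), as mean and SD of 6 libraries, circles for wild-type and triangles for null. Wnt2 moves from 5.92 to 6.92, next to Wnt7b, and Lrp6 moves from 7.73 to 8.34.

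Among the receptors, both co-receptors and 2 Frizzled genes rose, and 2 Frizzled genes fell. All 12 were tested, and 4 rose, 2 fell and 6 were not called, against 28.0% of all tested genes called higher and 25.1% lower. Over set means 3 were higher and 1 lower, against 7.58% and 6.96% of all tested genes. Fzd4, which also serves as the receptor of Norrin in blood vessels, stood at 8.03 to 8.27 in wild-type libraries (median 8.12) and at 8.77 to 9.40 in null libraries (median 9.07). The groups lay well apart, with a rise of 0.92 ± 0.0970 (SE; limma adjusted p = 2.09e-06, and adjusted p = 0.0171 over set means). Fzd3, a receptor of planar cell polarity and axon guidance, stood at 9.19 to 9.39 (median 9.27) and at 9.66 to 9.91 (median 9.85). It rose by 0.55 ± 0.0531 (SE; limma adjusted p = 8.29e-07, and adjusted p = 0.0237 over set means).

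Lrp6, the main co-receptor of the canonical branch, stood at 10.90 to 11.05 in wild-type libraries (median 10.95) and at 11.32 to 11.71 in null libraries (median 11.62). It rose by 0.60 ± 0.0630 (SE), a 1.52-fold difference, without overlap (limma adjusted p = 2.08e-06, and adjusted p = 0.0228 over set means). Lrp5 stood at 10.14 to 10.48 (median 10.35) and at 10.50 to 11.17 (median 10.88), so that the groups came close without meeting. Its rise of 0.53 ± 0.122 (SE; limma adjusted p = 0.00244) was not called over set means (adjusted p = 0.139) or without wild-type set A (adjusted p = 0.0620), and was 0.27 without null set B.

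Fzd5, a receptor with a known part in Paneth cells of the gut, had the lowest adjusted p of the Wnt genes. It stood at 9.50 to 9.87 in wild-type libraries (median 9.71) and at 8.82 to 9.0002 in null libraries (median 8.93). All null libraries lay below all wild-type libraries, and it fell by 0.78 ± 0.0645 (SE), a 1.72-fold difference (limma adjusted p = 1.85e-07, and adjusted p = 0.0145 over set means). Fzd10 stood at 5.31 to 5.76 in wild-type libraries (median 5.66) and at 4.87 to 5.27 in null libraries (median 5.07). It fell by 0.52 ± 0.115 (SE; limma adjusted p = 0.00162, and adjusted p = 0.119 over set means).

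The 6 Frizzled genes that were not called lay between -0.34 and 0.18 (limma). Fzd6 was the lowest of these, at 10.09 ± 0.09 in wild-type and 9.75 ± 0.38 in null libraries (SD, n = 6 each; limma adjusted p = 0.0561). It was called after quantile normalization (-0.41, adjusted p = 0.0177), after upper quartile scaling (-0.42, adjusted p = 0.0158) and without null set B (-0.66, adjusted p = 5.35e-05), while without null set A it was -0.032 (adjusted p = 0.720). Fzd1 (9.88 and 10.06 in wild-type and null libraries) was called higher without null set A (0.34, adjusted p = 0.000188) and without null library 2 (0.25, adjusted p = 0.00345), while without null set B it was 0.022 (adjusted p = 0.824). Fzd2 (7.88 and 8.00), Fzd7 (9.46 and 9.37), Fzd8 (7.42 and 7.57) and Fzd9 (4.21 and 4.10) were not called, and Fzd9 lay near the floor. Fzd7 was called lower after upper quartile scaling (-0.16, adjusted p = 0.0231) and without null set B (-0.22, adjusted p = 0.00831). Fzd8 was called higher without null set A (0.26, adjusted p = 0.0264) and without null library 1 (0.20, adjusted p = 0.0391). Without the other null set, Fzd7 was 0.046 (adjusted p = 0.520) and Fzd8 was 0.042 (adjusted p = 0.728).

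The receptors of R-spondins moved in opposite directions: Lgr5 fell and Lgr4 rose. Lgr5, a Wnt target gene that marks stem cells in several epithelia, stood at 8.19 to 8.45 in wild-type libraries (median 8.31) and at 6.47 to 7.41 in null libraries (median 7.00). The genotypes were separated by 0.78, from the highest null to the lowest wild-type library. It fell by 1.38 ± 0.135 (SE), a 2.60-fold difference (limma adjusted p = 1.00e-06, and adjusted p = 0.00506 over set means). Lgr4, the broadly expressed relative, stood at 10.07 to 10.41 (median 10.20) and at 10.54 to 10.87 (median 10.73). Its rise of 0.49 ± 0.0733 (SE; limma adjusted p = 6.70e-05) was not called over set means (adjusted p = 0.0568). Per kilobase of exon, Lgr4 stood above Lgr5 in both genotypes, at 7.89 against 6.08 in wild-type and 8.38 against 4.70 in null libraries.

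Among the R-spondins themselves, Rspo3 had the highest level per kilobase, at 7.22 in wild-type libraries, and fell by 0.22 from 8.85 to 8.63 (limma adjusted p = 0.0144, and adjusted p = 0.197 over set means). That call was lost without wild-type set B (adjusted p = 0.0820) and without null set B (adjusted p = 0.119). Rspo1 was called lower by 0.74 (limma adjusted p = 0.0474), but wild-type set B stood at 5.62 to 5.72 and wild-type set A at 4.37 to 4.49. The call was lost when any of 8 single libraries was left out, wild-type 4, 5 or 6 or null 1, 2, 3, 5 or 6 (adjusted p up to 0.105), and after quantile normalization (adjusted p = 0.0996). Without wild-type set B the difference was -0.13 (adjusted p = 0.695), without wild-type set A it was -1.34 (adjusted p = 0.000988), and over set means it did not pass (adjusted p = 0.281). The call was also lost without null set A and without null set B, and in 17 of 23 alternative settings in all. Rspo2 was not called, with 7.09 ± 0.36 and 7.24 ± 0.29 (SD, n = 6 each; limma adjusted p = 0.482).

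Of 7 tested secreted antagonists 3 fell, 0 rose and 4 were not called (limma), against 25.1% of all tested genes called lower and 28.0% higher. Of the 7, 0 were higher at an unadjusted limma p under 0.05, and 0 by the exact rank-sum test at that level. Over set means 2 were lower, against 6.96% of all tested genes. Wif1, which binds Wnt ligands directly, had the largest difference of all tested Wnt genes. Its wild-type libraries stood at 9.97 to 10.73 (median 10.33) and its null libraries at 8.48 to 9.22 (median 8.64). All null libraries were lower than all wild-type libraries, although sets differed inside both genotypes. It fell by 1.55 ± 0.183 (SE), a 2.93-fold difference (limma adjusted p = 1.47e-05, and adjusted p = 0.0274 over set means), and between pairs of set means the difference ran from -2.14 to -0.97. Per kilobase of exon Wif1 stood highest of the tested antagonists in both genotypes, at 9.14 in wild-type and 7.59 in null libraries, followed by Sfrp2 at 7.01 and 6.84.

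Sfrp1, a decoy that resembles the ligand-binding part of Frizzled, stood at 8.57 to 8.98 in wild-type libraries (median 8.65) and at 7.91 to 8.44 in null libraries (median 8.08). It fell by 0.61 ± 0.0974 (SE), without overlap (limma adjusted p = 0.000107, and adjusted p = 0.0403 over set means). Its relative Sfrp4 fell by 0.69, from 4.73 to 4.04 (limma adjusted p = 0.00565), with overlapping libraries near the floor. This call was lost over set means (adjusted p = 0.128), without wild-type set B (-0.43, adjusted p = 0.0992) and without null set B (-0.58, adjusted p = 0.0617). Sfrp2 (8.01 and 7.84 in wild-type and null libraries), Sfrp5 (5.53 and 5.52), Dkk2 (6.01 and 6.31) and Dkk3 (7.50 and 7.60) were not called.

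Inside the cell, the beta-catenin gene Ctnnb1 was slightly lower, and the 4 nuclear Tcf and Lef factors split, Tcf7l1 and Tcf7 lower, Tcf7l2 and Lef1 higher. Tcf7l1, which acts mostly as a repressor of Wnt target genes, stood at 8.39 to 9.01 in wild-type libraries (median 8.71) and at 7.55 to 7.85 in null libraries (median 7.62). The highest null library lay below the lowest wild-type library. It fell by 1.04 ± 0.105 (SE), a 2.06-fold difference (limma adjusted p = 1.36e-06, and adjusted p = 0.0175 over set means). Tcf7 stood at 8.65 to 9.15 (median 8.88) and at 8.22 to 8.61 (median 8.49). It fell by 0.45 ± 0.0954 (SE; limma adjusted p = 0.00106) but was not called over set means (adjusted p = 0.0978), and the fall was 0.29 without wild-type set A (-0.29, adjusted p = 0.0287).

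Lef1, at 5.53 ± 0.19 in wild-type and 5.95 ± 0.14 in null libraries (SD, n = 6 each), rose by 0.43 without overlap (limma adjusted p = 0.00542), but not over set means (adjusted p = 0.213) or without wild-type set B (0.27, adjusted p = 0.0908). Tcf7l2 rose by 0.29 (limma adjusted p = 0.00689), a call lost over set means (adjusted p = 0.184), without wild-type set A (0.13, adjusted p = 0.138) and without null set B (adjusted p = 0.0519), and 0.45 without wild-type set B. Ctnnb1 fell by 0.22, from 13.35 ± 0.05 to 13.12 ± 0.04 (SD, n = 6 each; limma adjusted p = 0.000423, and adjusted p = 0.240 over set means), and by 0.34 after quantile normalization (-0.34). Axin1, a scaffold of the complex that marks beta-catenin for destruction, stood at 9.96 and 9.95 and was not called. Axin2, which canonical signalling induces in many tissues, was not called over 12 libraries at 10.30 ± 0.14 and 10.49 ± 0.22 (SD, n = 6 each; limma adjusted p = 0.123), and was called higher without null set A (0.34, adjusted p = 0.0122). Without null set B it was 0.024 (adjusted p = 0.809), and without wild-type set B 0.065 (adjusted p = 0.672).

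**Figure D3:**
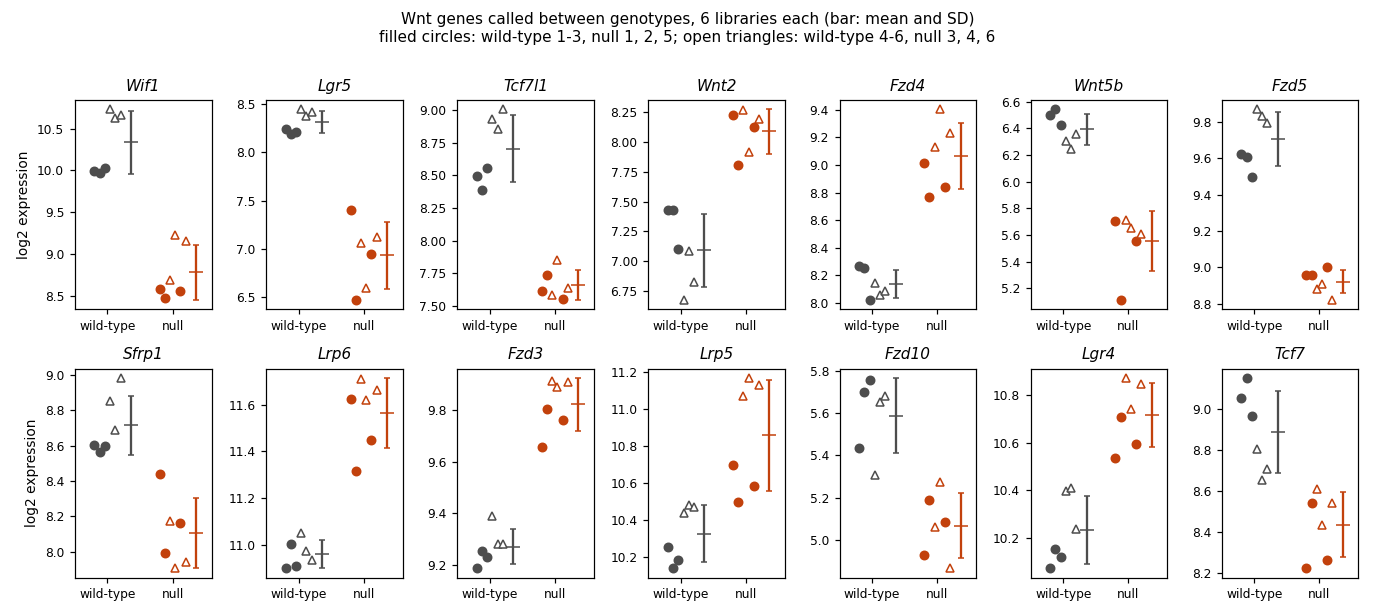
Log2 expression (vertical axis, own scale in each panel) of 14 called Wnt genes whose genotypes do not overlap, in the 6 wild-type and 6 null libraries, with mean and SD as bars and library sets as circles and triangles. In each panel all null libraries lie on one side of all wild-type libraries, as for Lgr5, at 8.19 to 8.45 against 6.47 to 7.41.

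Promoters are shown for 5 of the Wnt genes with the largest differences that have a single entry in the RefSeq promoter table (build GRCm38.p6): Wif1, Tcf7l1 and Fzd5, which fell, and Fzd4 and Wnt2, which rose. Each run is the 250 bases before the start site, 5′ to 3′ on the strand of the gene, with the core that Tcf and Lef factors bind in capitals where it is present (CTTTGA or CTTTGT, on either strand).
Wif1, chr10:121033754-121034003, plus strand: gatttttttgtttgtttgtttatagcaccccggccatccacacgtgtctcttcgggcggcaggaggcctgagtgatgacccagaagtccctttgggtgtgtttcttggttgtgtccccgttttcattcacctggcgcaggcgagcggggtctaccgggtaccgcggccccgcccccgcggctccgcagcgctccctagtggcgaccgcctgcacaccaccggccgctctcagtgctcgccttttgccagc
Tcf7l1, chr6:72789046-72789295, minus strand: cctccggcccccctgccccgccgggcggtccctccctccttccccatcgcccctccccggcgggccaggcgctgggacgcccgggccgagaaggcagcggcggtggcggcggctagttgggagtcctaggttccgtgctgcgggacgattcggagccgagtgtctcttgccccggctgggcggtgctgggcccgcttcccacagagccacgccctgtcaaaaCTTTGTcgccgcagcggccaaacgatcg
Fzd5, chr1:64737751-64738000, minus strand: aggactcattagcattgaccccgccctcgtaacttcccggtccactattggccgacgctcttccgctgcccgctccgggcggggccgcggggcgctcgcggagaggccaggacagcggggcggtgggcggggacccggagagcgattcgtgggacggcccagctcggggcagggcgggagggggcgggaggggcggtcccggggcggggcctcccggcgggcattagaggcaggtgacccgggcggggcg
Fzd4, chr7:89404116-89404365, plus strand: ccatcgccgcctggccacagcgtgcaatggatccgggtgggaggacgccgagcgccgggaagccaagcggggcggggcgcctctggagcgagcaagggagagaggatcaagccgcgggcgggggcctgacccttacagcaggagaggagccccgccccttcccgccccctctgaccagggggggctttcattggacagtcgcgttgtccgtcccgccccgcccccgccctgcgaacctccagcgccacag
Wnt2, chr6:18030446-18030695, minus strand: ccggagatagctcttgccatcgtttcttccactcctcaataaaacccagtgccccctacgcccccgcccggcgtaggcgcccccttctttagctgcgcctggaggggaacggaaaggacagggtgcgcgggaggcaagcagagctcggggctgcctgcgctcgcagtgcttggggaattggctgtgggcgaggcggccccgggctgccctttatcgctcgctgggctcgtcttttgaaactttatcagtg
Of these 5, the Tcf7l1 promoter holds 1 core, CTTTGT, which begins 28 bases before the start site. Over all 32851 promoters of that length in that source, 27.6% hold at least 1 core, and among the 45 promoters of the 36 Wnt genes with an entry 10 do (22.2%). The 5 promoters are rich in G and C, at 62.8% for Wif1, 73.6% for Tcf7l1, 76.4% for Fzd5, 72.8% for Fzd4 and 63.6% for Wnt2, against a median of 52.4% over all promoters. The promoters of both the genes that fell and the genes that rose lay above that median. A match is a description of these letters, and a window without one says nothing about binding elsewhere.

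Some Wnt genes differed between library sets, and Dkk3 and Rspo2 differed more between sets than between genotypes. The wild-type sets did not overlap in 26 of the 42 tested Wnt genes (61.9%, against 43.9% of all tested genes) and the null sets in 18 (42.9%, against 39.0%). The sets were themselves drawn from expression values, so separation between them is partly built in. In 13 of the 42 genes the sets lay apart in both genotypes, against 2748 of all 15096 tested genes. Among these, Axin2, Fzd5 and Fzd8 divided in opposite directions. For Axin2, set B minus set A was -0.23 in wild-type and 0.31 in null. The letters A and B do not pair a wild-type set with a null set, since the labels name no sets. Dkk3, a secreted glycoprotein of the Dickkopf family, stood at 7.70 to 7.98 in wild-type set A and 7.12 to 7.22 in set B. It stood at 7.89 to 8.11 in null set A and 7.06 to 7.38 in null set B. Each genotype thus held a high and a low set of much the same levels.

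Rspo2 showed the same division, at 7.38 to 7.41 and 6.53 to 6.90 in the wild-type sets and 7.43 to 7.51 and 6.86 to 7.28 in the null sets. Wnt6 stood at 5.76 to 5.90 and 5.06 to 5.11 in the wild-type sets and at 6.25 to 6.46 and 5.71 to 6.08 in the null sets. Wif1 was divided the other way in wild-type, at 9.97 to 10.03 and 10.63 to 10.73, and likewise in null, at 8.48 to 8.58 and 8.69 to 9.22. The summed smooth muscle markers stood at 16.4 to 16.5 in wild-type set A and 16.3 to 16.4 in set B, and at 16.5 to 16.7 in null set A and 16.0 to 16.2 in null set B. The summed seminal vesicle markers stood at 11.7 to 11.8, 6.87 to 7.08, 18.4 to 20.4 and 16.8 to 17.9 in the same 4 sets. Summed luminal markers stood at 16.2, 16.4, 15.9 to 16.0 and 16.1 to 16.4. Endothelial sums stood at 11.32 to 11.38, 10.99 to 11.03, 11.15 to 11.44 and 10.99 to 11.09. Basal sums stood at 12.81 to 12.84, 12.91 to 12.99, 12.90 to 13.09 and 13.24 to 13.27, and urothelial sums at 12.54 to 12.62, 12.71 to 12.78, 13.22 to 13.53 and 13.72 to 14.45. Smooth muscle, seminal vesicle and endothelial sums were thus higher in the sets where Dkk3, Rspo2 and Wnt6 were higher. Luminal, basal and urothelial sums were lower there. The other lists did not divide alike in both genotypes. Fibroblast sums were lower in wild-type set A, at 14.87 to 14.95, than in set B, at 15.01 to 15.06. In null they were higher in set A, at 14.7142 to 14.9743, than in set B, at 14.6675 to 14.7087. Myeloid, lymphocyte, adipocyte and nerve sums were higher in wild-type set A than in set B, but overlapped between the null sets. The part of the marker lists in these differences was not tested.

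**Figure D4:**
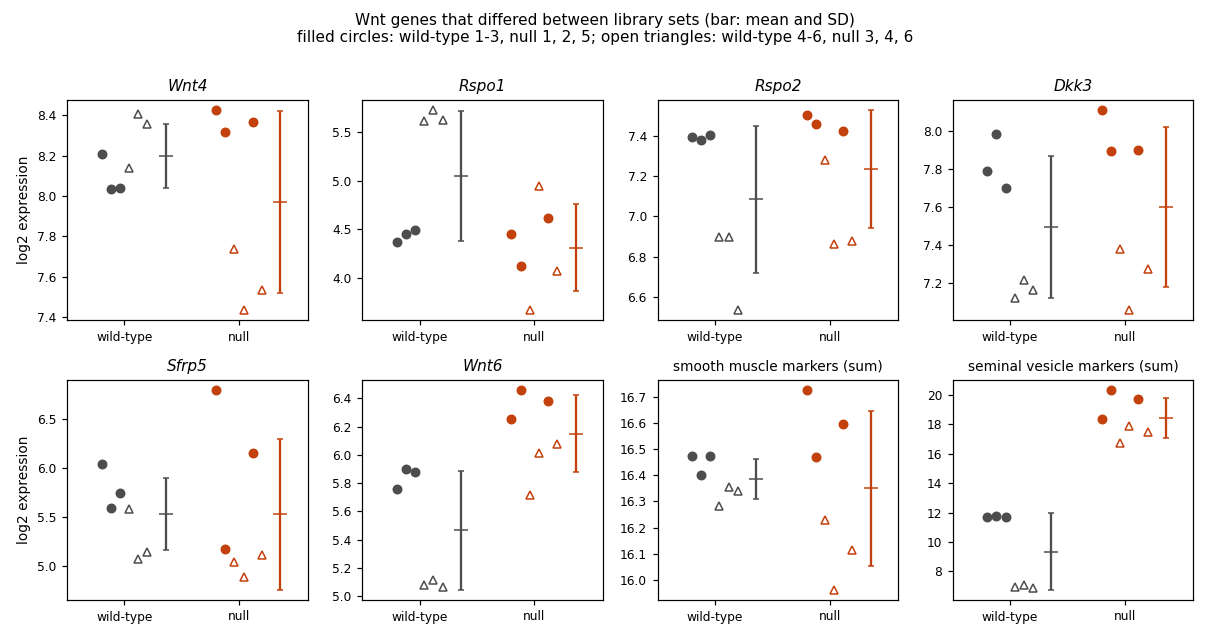
Log2 expression (vertical axis, own scale in each panel) of 6 Wnt genes that differed between library sets, and summed smooth muscle and seminal vesicle markers, in each of 12 libraries, with mean and SD as bars. Dkk3 stands at 7.70 to 7.98 and 7.12 to 7.22 in the wild-type sets, and at 7.89 to 8.11 and 7.06 to 7.38 in the null sets.

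The wider Wnt pathway was followed in 6 lists. Nkd1, Apcdd1, Notum, Rnf43 and Znrf3 are in the list of target genes and also in another list, and count in both. The lists held 89 genes beside the Wnt genes described above, of which 88 were tested. Of these 36 rose, 17 fell and 35 were not called (60.2% called, against 53.1% of all tested genes). Over set means 18 were higher and 10 lower, against 7.58% and 6.96% of all tested genes. Their median difference was 0.11, against 0.012 over all tested genes. Sp5, a transcription factor gene that is a direct Wnt target in many tissues, stood at 8.49 to 8.93 in wild-type libraries (median 8.73) and at 5.24 to 5.88 in null libraries (median 5.74). The groups lay far apart, and it fell by 3.07 ± 0.118 (SE; limma adjusted p = 7.92e-11, and adjusted p = 0.00117 over set means). Of 22 common Wnt target genes 10 were called higher and 4 lower (6 and 4 over set means), against 28.0% and 25.1% of all tested genes, and Tbx3 rose by 0.80 (limma adjusted p = 3.89e-08). Mmp7, also in the target list, fell further than Sp5, by 3.28 (limma adjusted p = 1.71e-05, and adjusted p = 0.0285 over set means). Jag1 rose by 1.06 (limma adjusted p = 1.31e-07). Wnt target genes thus did not move one way.

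Rnf43, a Wnt-induced ubiquitin ligase that removes Frizzled receptors from the cell surface, rose by 1.12, from 9.43 to 9.79 in wild-type libraries (median 9.63) to 10.53 to 10.94 in null libraries (median 10.73; limma adjusted p = 1.15e-07). Of 10 tested extracellular and membrane inhibitors 6 rose and 2 fell, against 28.0% of all tested genes called higher and 25.1% lower. Over set means 2 were higher and 1 lower, against 7.58% and 6.96% of all tested genes. Frzb fell by 1.17 (limma adjusted p = 2.75e-06), and Dkkl1, a Dickkopf-like gene, rose by 1.07 (limma adjusted p = 6.23e-06). Frzb stood at 5.14 to 5.53 in wild-type libraries and at 3.89 to 4.35, near the floor, in null libraries.

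Dact1, which encodes a partner of Dishevelled, fell from 8.71 to 9.34 in wild-type libraries (median 9.13) to 6.55 to 6.87 in null libraries (median 6.71). It fell by 2.38 ± 0.111 (SE; limma adjusted p = 5.28e-10), more than any of the 42 tested Wnt genes. Of 26 genes of the destruction complex and cytoplasm 8 rose, 6 fell and 12 were not called (4 higher and 3 lower over set means), a share near the 53.1% of all tested genes. Among those that rose were the Dishevelled gene Dvl3, by 0.73 (limma adjusted p = 3.36e-08), and Tnks, a tankyrase that marks axin for degradation, by 1.01 (limma adjusted p = 1.31e-06).

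Ctnnbip1, whose product keeps beta-catenin from binding Tcf factors, fell by 1.36 (limma adjusted p = 9.93e-09), while the acetyltransferase genes Crebbp and Ep300, coactivators of many factors, rose by 0.72 (limma adjusted p = 2.71e-08) and by 0.66 (limma adjusted p = 1.35e-07). Of 18 nuclear cofactors 8 rose, 4 fell and 6 were not called (4 higher and 2 lower over set means). For this and the following lists, all tested genes gave 28.0% higher and 25.1% lower, and 7.58% and 6.96% over set means. Among 14 other receptors and planar polarity genes, 6 were called higher and 2 lower (3 and 1 over set means), with rises of the polarity cadherins Celsr2 by 1.57 (limma adjusted p = 7.11e-10) and Celsr1 by 1.21 (limma adjusted p = 3.09e-05) and of the glypican gene Gpc6 by 0.78 (limma adjusted p = 1.42e-05). Of 3 genes listed under Wnt secretion, Wls and Notum rose and Porcn was not called (limma adjusted p = 0.121). Wls, the carrier of Wnt ligands to the cell surface, rose by 0.46 (limma adjusted p = 0.000115). Notum, an enzyme that removes the lipid from Wnt ligands rather than one that secretes them, rose by 0.74 (limma adjusted p = 0.00110). Of the other pathway genes given here with a difference, all except Wls (adjusted p = 0.0793) and Notum (adjusted p = 0.0952) also passed over set means.

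**Figure D5:**
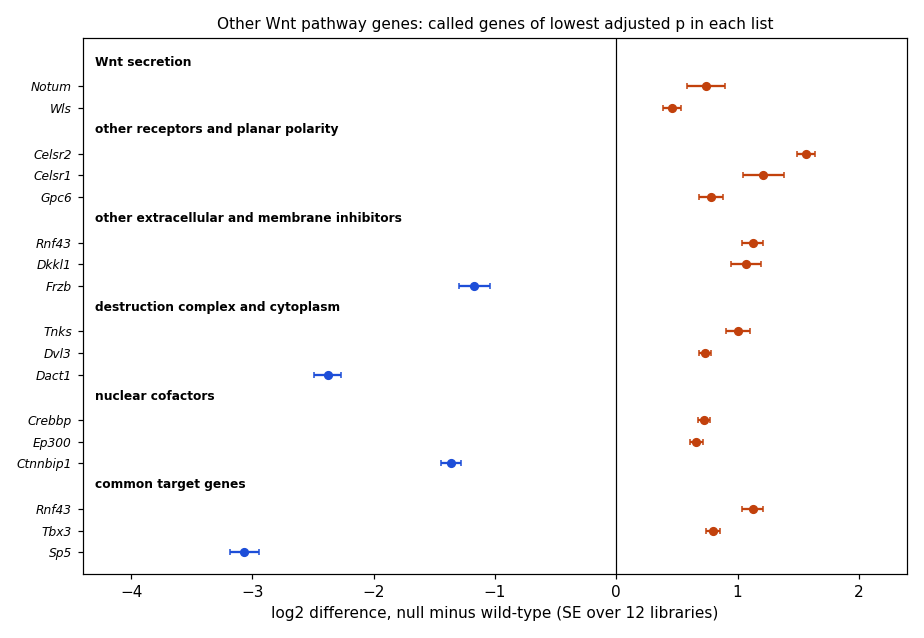
Log2 difference (null minus wild-type, horizontal axis) with its standard error over 12 libraries for up to 3 called genes of lowest adjusted p in each of 6 lists of other Wnt pathway genes. Sp5 at -3.07, Dact1 at -2.38 and Ctnnbip1 at -1.36 lie farthest to the left, and Celsr2 at 1.57 farthest to the right.

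The 12 Wnt genes that did not pass the filter were the ligands Wnt1, Wnt3, Wnt3a, Wnt7a, Wnt8a, Wnt8b, Wnt9b and Wnt16, with Rspo4, Lgr6, Dkk1 and Dkk4. They stood between 1.98 and 4.61 in all libraries, and the highest of them was Wnt3a, at 3.45 to 4.61 in wild-type and 3.35 to 4.43 in null libraries. Wnt3a is known for strong canonical activity and lay near the floor in both genotypes. No adjusted p is given for these 12 genes. Among them the wild-type sets lay apart for Dkk1, at 3.44 to 3.82 in set A and 2.405 to 2.644 in set B, and for Wnt3, and the null sets for Wnt7a. Wnt3 and Wnt7a lay below 3.51, the 95th percentile of the olfactory receptor genes, in every library, so their gaps lie within the floor.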

How the data were processed

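The deposited table gives 1 value per gene and library on a log2 scale. The authors' normalization and exact transformation are not given in the sources used here. RNA was poly-A selected with TruSeq kits and sequenced on HiSeq instruments, per the labels' protocols, and build mm9, TopHat2 2.0.4 and DESeq appear in the submitters' processing notes without a stated role, next to Cufflinks 2.0.2 and CASAVA 1.8.2. No counts were used here, so no interval for counting error could be given.

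Genes of at least 4 in at least 6 libraries (15096 of 23284) were tested with limma 3.58.1 (R 4.3.3), null against wild-type, with trend and robust moderation and Benjamini-Hochberg adjustment over all tested genes, called at an adjusted p under 0.05. A second fit used the means of 4 library sets, 2 against 2. The sets come from the values and are not named in the labels. The limma steps were tested on simulated data with independent libraries and no library sets, which cannot show how they behave with such sets. Members, gene lists and sets were chosen with earlier results of these data known. Called Wnt genes without overlap and with a mean of at least 5 were described in full, at most 14, and up to 3 called genes of lowest adjusted p in each pathway list were named. Mmp7 and Jag1 were named beside these for the size of their differences. Levels per kilobase used the union of exons of GENCODE M21. Alternatives covered scaling, moderation, a rank test, filters, a 1.5-fold threshold and leaving out libraries or sets. The level of the targeted gene is not reported here.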

Additional observations from a re-analysis of the deposited data

Results flagged for a closer look

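In 2 of 84 groups of 6 libraries, 1 for each genotype and tested Wnt gene, a library stood far from the others of its group, and chance alone gives such a gap in about 1 in 20 groups. Lef1 stood at 6.21 in null library 3, with the nearest null library at 5.97. Wnt5b stood at 5.12 in null library 2, with the nearest null library at 5.56. Both calls held without that library.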

How the results depend on the processing

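Of the 25 called Wnt genes, 24 kept their call without any single library, 18 without any library set, and 4 under all settings tried (Wif1, Lgr5, Tcf7l1 and Fzd4), and 0 of 25 changed direction (limma). Leaving out 1 library gave 11 to 12 higher and 13 to 15 lower Wnt genes, and 34 to 39 higher and 16 to 18 lower other pathway genes. Of all 15096 tested genes it gave 4022 to 4185 higher and 3518 to 3754 lower. Against a 1.5-fold change, 1 Wnt gene was higher and 3 lower and 7 other pathway genes were higher and 6 lower. Over set means these were 5, 6, 18 and 10. Of all tested genes 487 were higher and 569 lower against a 1.5-fold change, and 1144 and 1051 over set means.

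Some uncalled genes changed sign. After quantile normalization, Sfrp5 stood at 0.10 and Wnt2b at 0.055. Without wild-type set B the differences were Axin1 0.040, Dkk3 -0.22, Rspo2 -0.16, Wnt2b 0.051 and Wnt9a 0.052, and without wild-type set A Fzd9 0.014 and Sfrp5 0.26. Without null set A they were Dkk3 -0.26, Fzd7 0.046 and Rspo2 -0.078, and without null set B Sfrp5 0.51, Wnt2b 0.13, Wnt4 0.17 and Wnt9a 0.13. With single libraries left out, differences ran from -0.028 to 0.0078 for Axin1, from -0.26 to 0.13 for Sfrp5, from -0.11 to 0.049 for Wnt2b. The cause was not tested. Some uncalled genes became called, among them Wnt4 (-0.63) and Sfrp5 (-0.52) without null set A, Fzd7 (-0.22) without null set B and Rspo2 (0.46) without wild-type set A.

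No paired analysis was possible because the labels give no replicate numbers shared between genotypes. Depth is unknown, and the size of differences near the floor is uncertain.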
